A study of Mus musculus with 8 samples.

Results

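The response of the left ventricle to pressure overload in mice that lack Lin28a in the heart was read from 4 of the 8 RNA libraries of the study. Lin28aCko mice, written cKO here, carry a cardiac-specific knockout of Lin28a according to the design. They underwent transverse aortic constriction (TAC), in which the aortic arch is narrowed so that the left ventricle pumps against a higher pressure, or sham surgery. The members are all genes with at least 1 CPM (the reads of a gene scaled to the total of its library) in at least 2 libraries, which kept 13120 of the 13439 genes in the deposited table. Each cKO group had 2 libraries, and so did the sham and TAC groups of the control littermates, Lin28afl/fl mice, written floxed here, whose Lin28a gene is flanked by recombination sites. TAC hearts were taken at day 5, and the labels give no day for sham hearts. Neither the promoter that drives the knockout nor the age, sex or strain of the mice is given in the labels. The study title asks about cardiac hypertrophy under pressure overload when Lin28a is lost, and the comparison of cKO TAC with cKO sham hearts gives the response that remained.

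The 8 libraries held 10315902 to 21871570 reads, those of the cKO hearts 10315902 and 15069193 (sham) and 18128090 and 17353978 (TAC). A gene with no read in a library can hold up to 3 reads, which is 0.137 to 0.291 CPM over the libraries, a limit that covers counting error only. The labels speak of duplicates without saying that each library is a separate mouse. What the p-values measure is therefore the spread between libraries. Outside the cKO sham pair described below, that spread may be technical. Transcripts of Lin28a were not analysed here, and the genotypes rest on the labels. Markers of heart muscle summed to 93167 to 106942 CPM in the 4 cKO libraries, as the tissue label says. The library cKO sham 2 stood apart with 44.3 CPM of the X-inactivation transcript Xist, at most 0.173 CPM elsewhere, and with no read of the Y-linked gene Ddx3y. Ddx3y was at 63.2 CPM in cKO sham 1, so the cKO sham libraries came from mice of different sex. By these transcripts cKO sham 2 was the only female library. The part of sex in the cKO results was not tested. The atrial light chain gene Myl7 was at 65.0 and 66.2 CPM in cKO sham 2 and cKO TAC 2 and at 5.14 and 4.03 CPM in cKO sham 1 and cKO TAC 1. It was at 133 CPM in floxed sham 2, and these 3 libraries with atrial transcripts were left out together in 1 of 17 alternative settings, which also cover other scalings, filters and tests and each library left out in turn.

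A ventricle under pressure load thickens its wall. Its muscle cells enlarge, release natriuretic peptides and take up contractile isoforms of the fetal heart, while fibroblasts lay down matrix, macrophages enter and cells other than muscle divide. In parallel, genes of fatty acid oxidation and of ion channels of the adult muscle cell usually decline. LIN28A is an RNA-binding protein that blocks the processing of let-7 microRNA precursors. Let-7 in turn represses messenger RNAs that match its seed, the short stretch near its 5' end, among them Hmga2 and the Igf2bp genes.

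Between TAC and sham, 332 of the 13120 genes passed the threshold in cKO hearts (limma on log2(CPM + 1), Benjamini-Hochberg adjusted p under 0.05), 2.53% of those tested. They split into 274 that rose (2.09%) and 58 that fell (0.442%). In each of the 332 genes both TAC libraries lay beyond both sham libraries, which was so upward in 23% and downward in 19.9% of all tested genes. The changes were past 2-fold for 213 of the genes that rose and 23 of those that fell. Over all tested genes the median log2 difference was 0.02. In floxed hearts, 42.4% of the same genes passed (27.9% rose and 14.5% fell). The interaction, the cKO response minus the floxed response, is the test used below for any statement that both genotypes differ. It passed for 14.1% of genes, positive in 4.93% and negative in 9.18%. Its median over all genes was -0.13, and RLE scaling in place of the library total brought that median to -0.02 and the split to 843 positive and 916 negative genes. Counts moved with single libraries. In cKO hearts 71 genes passed when cKO sham 2 was left out and 160 without cKO sham 1, while there were 217 without cKO TAC 2, 615 without cKO TAC 1 and 183 to 190 without any 1 floxed library, and for the interaction the counts ran from 254 without floxed sham 1 to 2919 without cKO TAC 2.

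Natriuretic peptides rose in cKO hearts. Nppa, which encodes atrial natriuretic peptide, had 286 and 248 CPM in the sham libraries and 2171 and 1409 CPM in TAC 1 and TAC 2, 6.70-fold on the group means and a difference of 2.71 ± 0.19 on the log2(CPM + 1) scale (± SE; limma adjusted p = 0.000397). Nppb, which encodes B-type natriuretic peptide, stood at 364 and 377 CPM in sham and 592 and 615 CPM in TAC libraries, a difference of 0.70 ± 0.12 (adjusted p = 0.0179). Sham and TAC libraries did not overlap for either gene, and each pair of libraries lay close together for Nppb. In floxed hearts Nppb went from 73.3 and 76.9 to 1346 and 1087 CPM, and the interaction was -3.29 ± 0.17 (adjusted p = 6.26e-05). For Nppa the floxed values were 188 and 189 CPM in sham and 4033 and 3323 CPM in TAC libraries, with an interaction of -1.56 ± 0.27 (adjusted p = 0.00953). Both peptides therefore rose less in cKO than in floxed hearts, Nppb by the wider margin on the log2 scale. The other 5 genes of the peptides' list, which hold their processing enzymes and receptors, did not pass. Nppb no longer passed when cKO sham 1, cKO sham 2 or cKO TAC 2 was left out, whereas Nppa did under all 17 alternatives.

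**Figure D1:**
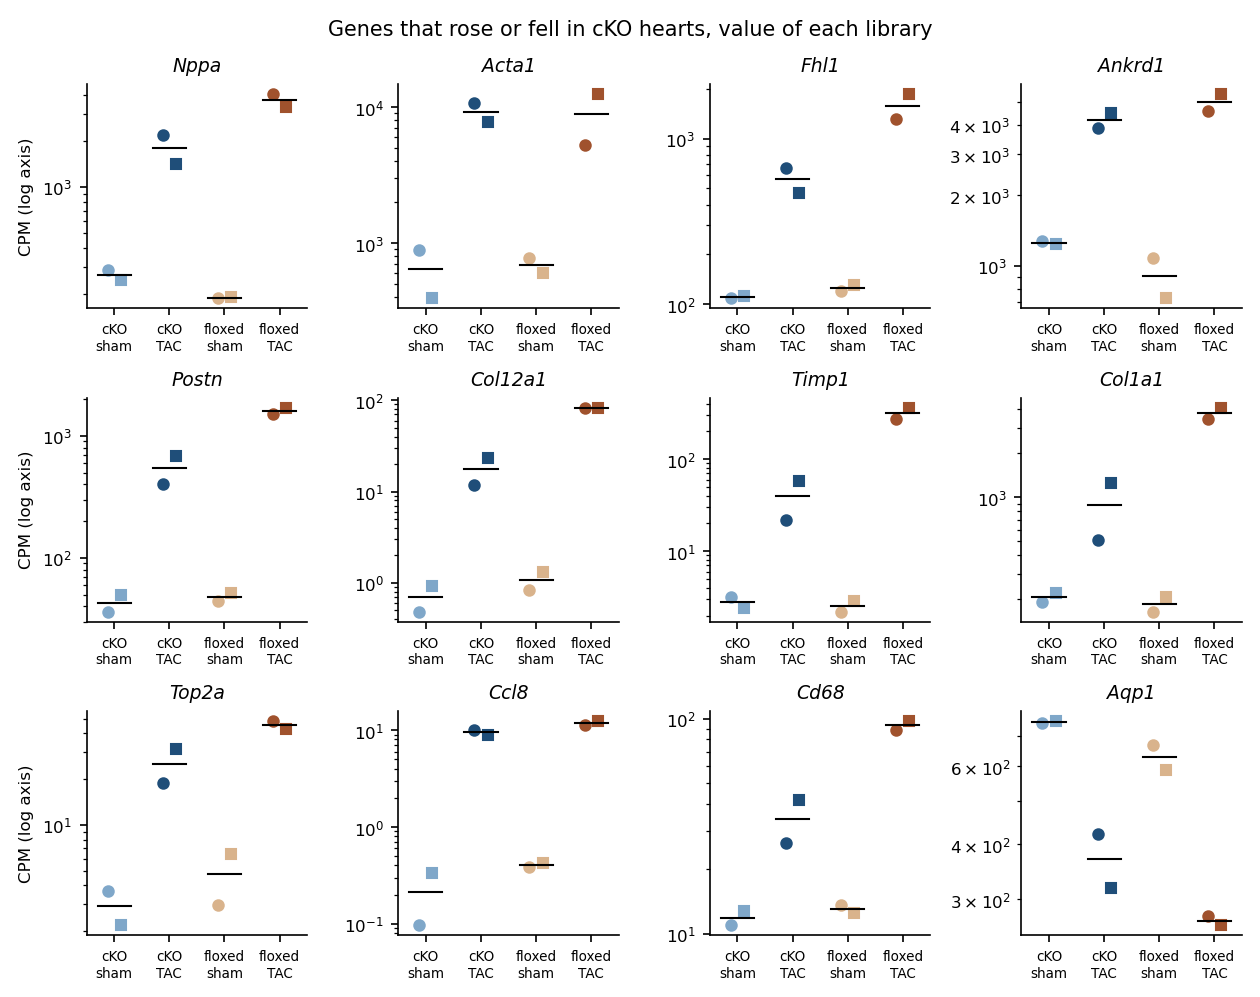
Each panel plots 1 gene, with CPM on a log axis, for the 2 libraries of each of the 4 groups (circle, library 1; square, library 2; black line, group mean). In cKO hearts Nppa, Acta1, Fhl1, Ankrd1, Postn, Col12a1, Timp1, Col1a1, Top2a, Ccl8 and Cd68 were higher in both TAC libraries than in both sham libraries, and Aqp1 was lower.

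Among contractile proteins, the skeletal muscle actin gene Acta1, an isoform of the fetal heart, had 892 and 395 CPM in sham and 10643 and 7785 CPM in TAC libraries, 14.3-fold on the group means and a difference of 3.94 ± 0.43 (adjusted p = 0.0031). The floxed TAC libraries held 5235 and 12442 CPM, on both sides of the cKO TAC values, and the interaction of 0.38 ± 0.61 did not pass (adjusted p = 0.714). The smooth muscle actins rose too. Acta2 went from 148 and 128 to 276 and 442 CPM, and Actg2 from 2.42 and 1.46 to 19.5 and 15.7 CPM, a difference of 2.67 ± 0.27 (adjusted p = 0.0026). Tpm2, a beta-tropomyosin, rose from 21.5 and 23.2 to 49.3 and 45.3 CPM. The actin genes are near-identical in sequence, and how reads shared between them were counted is not given in the sources used here, so the split among them is uncertain. Of the 13 fetal sarcomere genes, 3 rose, 0 fell and 10 did not pass, where 2.09% of all tested genes rose. Myh7, the slow myosin heavy chain that stands for the fetal program in mice, had 894 and 1353 CPM in sham and 1899.9 and 1253 CPM in TAC libraries, ranges that overlap (adjusted p = 0.445). Myh6, the adult fast isoform, had 15260.4 and 19395 CPM in sham and 28600.4 and 15872 CPM in TAC libraries, also overlapping. The 16 adult sarcomere genes had a median log2 difference of -0.08 in cKO and -0.61 in floxed hearts. None of them passed in cKO hearts, and 8 passed the interaction, all positive, against 4.93% of all genes.

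The promoter of Acta1 is shown because it holds a CArG box, the site of serum response factor, in capitals, starting 73 bases before the RefSeq start of transcription. The 250 bases before that start are given (GRCm38.p6, chr8:123894776-123895025, minus strand).
Acta1: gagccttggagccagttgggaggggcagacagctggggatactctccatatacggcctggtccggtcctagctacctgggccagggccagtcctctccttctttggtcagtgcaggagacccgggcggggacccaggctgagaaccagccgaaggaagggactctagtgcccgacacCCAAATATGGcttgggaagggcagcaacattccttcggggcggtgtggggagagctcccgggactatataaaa
Promoters were in the RefSeq table for 203 of the 274 genes that rose, and a CArG box (a motif that reads alike on both strands) was in 6 of them, or 2.96%, against 1.44% of the 9705 tested genes with a promoter. The holders were Acta1, Fhl1, the myosin light chain gene Myl9, the macrophage gene Cbr2, the mitosis gene Ckap2l and Zfp36, which encodes an mRNA decay factor. A TATA box (TATAAA, either strand) was in 14.8% of the promoters of genes that rose and 8.27% of all. The MCAT motif (CATTCC, either strand) was in 14.8% against 13.4%, and the AP-1 motif (TGANTCA, either strand) in 8.87% against 5.68%. Among the 38 genes that fell and had a promoter, the CArG box was in 1 (2.63%) and the TATA box in 5 (13.2%). MCAT was in 6 of them (15.8%) and AP-1 in 1 (2.63%). The shares of the CArG box, TATA and MCAT in genes that rose were thus near those in genes that fell. The latter rest on few genes, for the CArG box on 1, so they cannot show that the shares are alike. These are descriptions of the letters in a window, not of bound sites.

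Genes of the Z-disc and of the response to stretch rose in 9 of 28 cases, against 2.09% of all tested genes. None was lower, and the median log2 difference was 0.58. Fhl1, a LIM protein that takes part in stretch sensing at the sarcomere, had 109 and 113 CPM in sham and 666 and 472 CPM in TAC libraries (adjusted p = 0.000824), and it passed under all 17 alternatives. Ankrd1, a titin-associated repressor of transcription, had 1272 and 1238 CPM in sham and 3880.3 and 4494 CPM in TAC libraries, a difference of 1.73 ± 0.19. Its floxed TAC values were 4567 and 5411 CPM, and the interaction of -0.75 ± 0.27 did not pass (adjusted p = 0.0887). Pdlim5, which anchors signalling proteins at the Z-disc, rose from 807 and 739 to 1284 and 1441 CPM, and the intermediate filament gene Vim from 322 and 325 to 561 and 671 CPM. The interaction was negative and passed for 10 of the 28 genes, and positive for 2, against 9.18% and 4.93% of all genes. The negative count was 7 under RLE scaling, 7 with edgeR and 10 with DESeq2. Of 4 keratin genes, which form filaments outside the sarcomere, Krt18 rose from 0.679 and 0.73 to 4.14 and 9.80 CPM and Krt80 from 0.679 and 1.06 to 3.81 and 3.17 CPM. Neither keratin passed without cKO sham 1 or without cKO sham 2. None of the 12 tubulins passed in cKO hearts, where their median was 0.38, against 1.87 in floxed hearts. The interaction was negative and passed for 8 of those 12, against 9.18% of all genes. Tubb3 had 1.07 and 1.66 CPM in cKO sham libraries, 3.48 and 7.95 CPM in cKO TAC and 67.0 and 44.6 CPM in floxed TAC libraries, an interaction of -3.41 ± 0.51 (adjusted p = 0.00616). Without cKO TAC 1, 5 tubulins passed in cKO hearts. For the Z-disc list the count of 9 fell to 2 without cKO sham 2 and to 5 when cKO sham 1, cKO TAC 2 or either floxed sham library was left out.

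Matrix genes of several classes rose in cKO hearts. In bulk tissue, fewer cells of a type and less RNA per cell cannot be told apart. Of 30 collagen genes, 10 rose, against 2.09% of all tested genes, and 0 fell. In 22 of the 30 both TAC libraries lay above both sham libraries, against 23% of all genes. Col12a1, a collagen that decorates the surface of fibrils, had 0.485 and 0.929 CPM in sham and 11.7 and 23.2 CPM in TAC libraries, a difference of 3.37 ± 0.30 (adjusted p = 0.00116). Col8a1, a short-chain collagen of remodelling vessels and hearts, rose from 42.7 and 37.3 to 136 and 227 CPM. Both passed under all 17 alternatives. The fibril-forming Col1a1 had 191 and 221 CPM in sham and 509 and 1248 CPM in TAC libraries, and Col3a1 had 343 and 401 CPM in sham and 934 and 1699.8 CPM in TAC libraries. TAC 2 was above TAC 1 by a factor of more than 1.5 in both of these genes, yet no TAC library reached down to the sham range. In floxed TAC libraries Col1a1 was at 3413 and 4100.3 CPM, and its interaction was -2.38 ± 0.46 (adjusted p = 0.0134). The median over the collagens was 0.83 in cKO and 2.19 in floxed hearts, with 12 negative and 3 positive interactions past the threshold. Those shares were 9.18% and 4.93% over all genes. The summed CPM of the collagen genes, 32 with those below the filter, was 3099 and 3094 in cKO sham, 5016 and 9139 in cKO TAC and 16519.8 and 22288 in floxed TAC libraries. Without cKO sham 1 or without cKO sham 2 the count of collagens that rose was 6, and in the fit of the 4 cKO libraries alone it was 5.

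Enzymes that cross-link and trim collagen rose in 4 of 26 cases, against 2.09% of all tested genes. Lox, a lysyl oxidase that cross-links collagen and elastin, had 4.17 and 2.26 CPM in sham and 19.5 and 58.2 CPM in TAC libraries, a difference of 3.09 ± 0.42, which was not past the threshold without cKO sham 2. Its relative Loxl2 rose from 51.4 and 57.4 to 115 and 178 CPM, the procollagen protease gene Adamts2 from 22.6 and 28.9 to 57.6 and 80.7 CPM, and Pcolce, an enhancer of procollagen cleavage, from 86.1 and 87.7 to 136 and 189 CPM. In floxed hearts 25 of the 26 rose, against 27.9% of all genes. The interaction was negative and passed for 18 of the 26, against 9.18% of all genes. The median difference was 0.28 in cKO and 1.51 in floxed hearts. Collagen genes and the genes of their enzymes thus both had members with a smaller rise in cKO hearts. Without cKO TAC 1, 9 of these enzymes rose in cKO hearts, and without cKO sham 1 or without cKO sham 2 only 1 did.

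Matricellular proteins, which sit in the matrix and signal to cells without bearing load, rose in 10 of 22 cases. Over all tested genes 2.09% rose. The median log2 difference of the list was 1.32. Postn, or periostin, a product of activated fibroblasts, had 36.3 and 49.5 CPM in sham and 403 and 677 CPM in TAC libraries, 12.6-fold on the group means (adjusted p = 0.000397). Thbs4, a thrombospondin of loaded muscle and tendon, rose from 6.88 and 9.09 to 58.4 and 85.9 CPM, and Fstl1, a secreted follistatin-like protein, from 112 and 112 to 314 and 416 CPM. All 3 passed under all 17 alternatives. The tenascin gene Tnc had 0.291 and 1.46 CPM in sham and 19.6 and 110.4 CPM in TAC libraries, so that TAC 2 exceeded TAC 1 severalfold. Spp1, which encodes osteopontin, a protein of macrophages in injured hearts, had 0.0969 and 0.0664 CPM in sham libraries, below 3 reads in each, and 5.85 and 27.7 CPM in TAC libraries. Cthrc1, a collagen-associated protein of activated fibroblasts, had 0.0969 and 0.0664 CPM in sham and 4.63 and 17.9 CPM in TAC libraries. For Ctgf, which encodes connective tissue growth factor, the values were 113 and 147 CPM in cKO sham libraries, 211 and 300.4 CPM in cKO TAC, 51.7 and 48.6 CPM in floxed sham and 1186 and 1189 CPM in floxed TAC libraries. Its cKO difference was 0.96 ± 0.17 (adjusted p = 0.0238), and its interaction of -3.58 ± 0.24 passed (adjusted p = 0.000314). The count of 10 was 5 without cKO sham 2 and 3 in the fit of the 4 cKO libraries alone.

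Elastic fibres and fibronectin gave 6 of 18 genes that rose, against 2.09% of all tested genes. Ltbp2, a latent TGF-beta binding protein of elastic fibres, had 2.71 and 2.39 CPM in sham and 38.7 and 97.9 CPM in TAC libraries, a difference of 4.14 ± 0.38 (adjusted p = 0.00149). Its interaction, -1.44 ± 0.54, did not pass (adjusted p = 0.0997). The microfibril gene Mfap5 rose from 28.0 and 28.5 to 77.6 and 105 CPM, fibronectin (Fn1) from 76.2 and 98.3 to 250.2 and 497 CPM and fibulin 2 (Fbln2) from 129 and 137 to 272 and 352 CPM. Cilp, a secreted protein of cardiac fibroblasts that belongs to none of the lists, rose from 13.9 and 16.7 to 77.2 and 176 CPM. Of the 27 proteases and inhibitors, 4 rose. Timp1, an inhibitor of matrix metalloproteases, had 3.20 and 2.39 CPM in cKO sham libraries, 21.7 and 57.3 CPM in cKO TAC and 272 and 361 CPM in floxed TAC libraries, and its interaction was -3.21 ± 0.52 (adjusted p = 0.00759). It overlaps Syn1 in the annotation. The proteases Adamts8, Adamts12 and Ctss (cathepsin S of macrophages) made up the rest, and the count was 8 without cKO TAC 1 and 2 without cKO sham 2, cKO TAC 2 or any 1 floxed library. Of 20 TGF-beta ligands, receptors and feedback genes, 0 passed in cKO hearts and 3 did without cKO TAC 1. Of 18 matrix-binding integrins 0 passed in cKO hearts, against 11 that rose and 1 that fell in floxed hearts. Among all genes 27.9% rose and 14.5% fell in floxed hearts. Of the 18 proteoglycan and fibroblast identity genes 5 rose, among them the proteoglycan genes Bgn (463 and 488 to 1045 and 1516 CPM) and Aspn (35.8 and 29.7 to 67.6 and 83.4 CPM), which shares bases with Cenpp. The summed CPM of that list was 3769.8 and 4212 in sham and 4232 and 4801 in TAC libraries, and its part in the matrix results was not tested. Its count of 5 was 2 without cKO TAC 2 or any 1 floxed library and 3 without either cKO sham library.

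**Figure D2:**
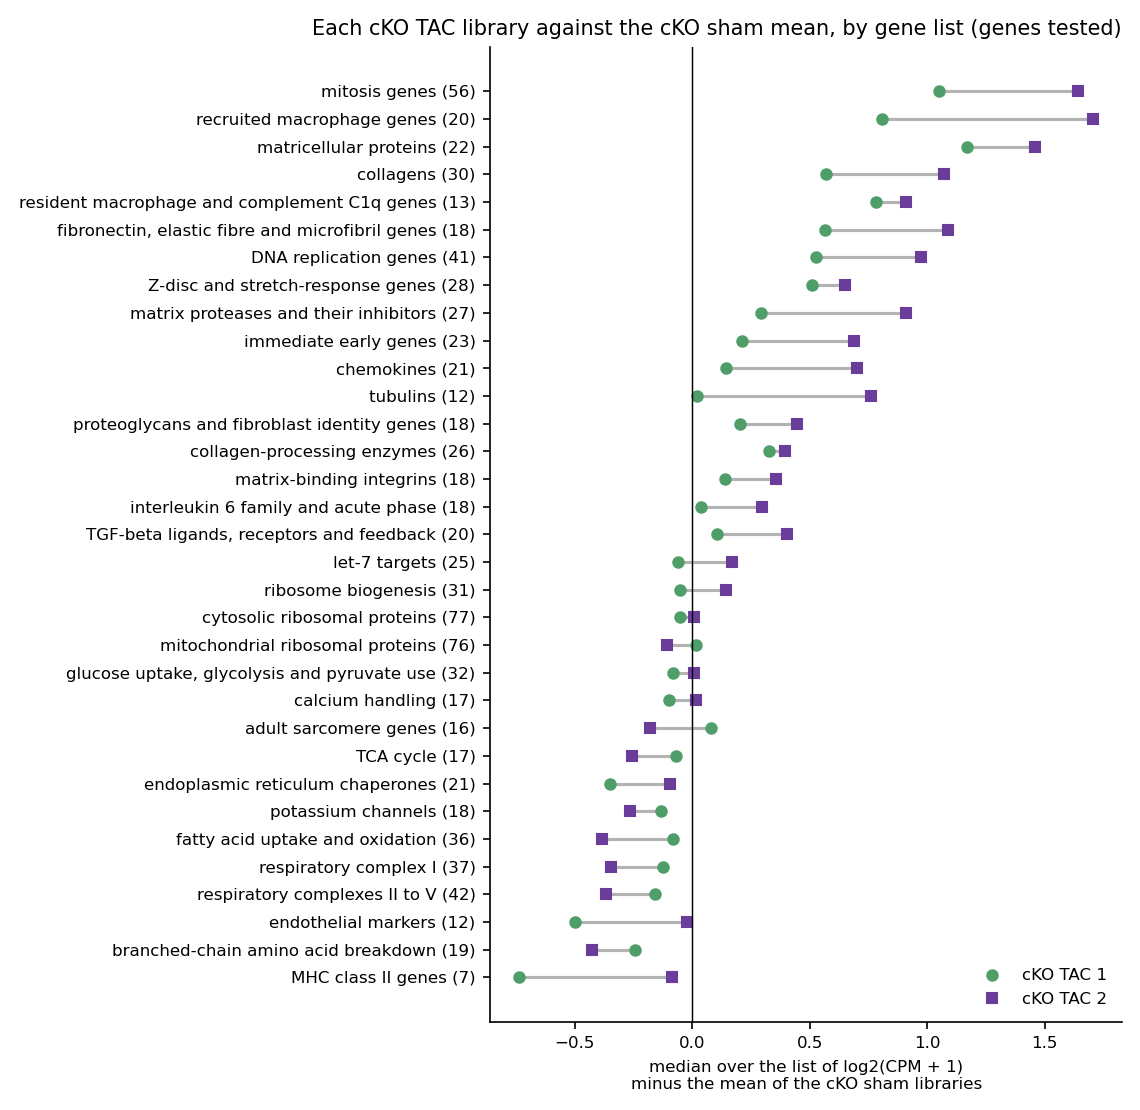
Each row is a gene list with its number of tested genes, and the x axis gives the median over its genes of the log2(CPM + 1) value of cKO TAC 1 (green circle) or cKO TAC 2 (purple square) minus the mean of the cKO sham libraries. Mitosis, macrophage and matrix lists lay to the right in both TAC libraries, and TAC 2 lay farther from sham than TAC 1 in the recruited macrophage list (medians 1.71 and 0.81).

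Macrophage transcripts rose in cKO hearts. Of 20 genes of recruited macrophages, 9 rose, against 2.09% of all tested genes, and 0 fell, with a median log2 difference of 1.34. Cd68, a lysosomal protein of macrophages, had 11.0 and 12.7 CPM in sham and 26.5 and 41.7 CPM in TAC libraries (adjusted p = 0.00866). The lipid receptor gene Trem2 rose from 2.33 and 1.53 to 7.56 and 11.2 CPM, lysozyme (Lyz2) from 135 and 78.9 to 236 and 347 CPM and the monocyte chemokine receptor gene Ccr2 from 1.36 and 1.33 to 4.41 and 7.49 CPM. TAC 2 was the higher of the TAC libraries for all 4. Of 13 genes of resident macrophages and complement C1q, 7 rose, and all 3 chains of C1q were among them. C1qb went from 51.4 and 44.4 to 107 and 139.6 CPM, C1qa from 69.2 and 53.8 to 106 and 142 CPM and C1qc from 65.7 and 49.9 to 109 and 138 CPM. A negative interaction passed for 14 of 20 recruited and 4 of 13 resident genes, against 9.18% of all genes. For the recruited list that count was 13 under RLE scaling, 7 with edgeR and 9 with DESeq2, and for the resident list it was 2, 3 and 4. Summed over the recruited list, CPM was 236 and 154 in cKO sham, 402 and 618 in cKO TAC and 2118 and 1585 in floxed TAC libraries. The counts of 9 and 7 were each 1 without cKO sham 2, 2 and 3 without cKO TAC 2, and 3 and 4 without either floxed TAC library.

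Other immune lists are set against all tested genes, of which 2.53% passed the threshold. The chemokine gene Ccl8, whose product draws monocytes, was the 1 of 21 chemokines that passed, with 0.0969 and 0.332 CPM in sham and 10.1 and 8.93 CPM in TAC libraries (adjusted p = 0.000397). The sham value of library 1 is below 3 reads, so no fold is given. Its floxed TAC values were 11.4 and 12.4 CPM, and the interaction of -0.08 ± 0.31 did not pass (adjusted p = 0.891). MHC class II genes, which present antigen, had 0 of 7 past the threshold in cKO hearts. H2-Ab1, a chain of that complex, had 68.5 and 57.5 CPM in cKO sham libraries and 33.4 and 52.5 CPM in cKO TAC libraries, against 35.7 and 36.4 CPM in sham and 110.4 and 131 CPM in TAC libraries of floxed hearts. Its cKO difference was -0.57 ± 0.20 (adjusted p = 0.182), its floxed difference 1.71 ± 0.20, and its interaction -2.28 ± 0.28 (adjusted p = 0.00437). The class II list as a whole had a median of -0.48 in cKO and 1.83 in floxed hearts. Of its 7 interactions, 6 were negative and past the threshold, against 9.18% of all genes. The cKO sham libraries summed to 482 and 382 CPM over this list and the floxed sham libraries to 258 and 249.8 CPM. Ciita, the activator of class II transcription, had 0.679 and 0.531 CPM in sham and 1.27 and 2.13 CPM in TAC libraries of cKO hearts (adjusted p = 0.221). Of 40 interferon-response genes 1 rose, Zbp1, and 1 fell, Gbp1. Stat3, the transcription factor of the interleukin 6 family, rose from 127 and 143 to 191 and 229.9 CPM and was the 1 of 18 genes of that family to pass, a call lost in 9 of the 17 alternatives. It overlaps Stat5a in the annotation. Markers of neutrophils (4 genes), lymphocytes (1) and red cells (2) had 0 genes past the threshold.

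Many cell division genes rose in cKO hearts. Of 56 mitosis genes, 29 rose, against 2.09% of all tested genes. Of the others, 0 fell and 27 did not pass, and the median log2 difference of the list was 1.43. In 53 of the 56 both TAC libraries lay above both sham libraries, against 23% of all genes. Mki67, the proliferation antigen, had 1.84 and 0.929 CPM in sham and 19.6 and 13.8 CPM in TAC libraries, 12.1-fold on the group means (adjusted p = 0.00348). Top2a, a topoisomerase that untangles DNA before division, had 3.68 and 2.19 CPM in sham and 18.8 and 31.6 CPM in TAC libraries. Bub1b, of the spindle checkpoint, rose from 0.582 and 0.265 to 5.85 and 8.59 CPM, Prc1, which bundles the microtubules of the spindle midzone, from 2.23 and 0.929 to 11.6 and 20.5 CPM, and the kinesin gene Kif22 from 0 and 0.199 to 3.70 and 5.76 CPM. Sham values of Kif22 were at or below 3 reads, so no fold is given for it. Top2a, Bub1b, Prc1 and Kif22 passed under all 17 alternatives, and Mki67 under all but the fit without the 3 libraries with atrial transcripts. Prc1 shares bases with Rccd1.

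DNA replication genes gave 11 of 41 that rose and 0 that fell, where 2.09% of all tested genes rose. Tk1, a thymidine kinase of the S phase, had 1.26 and 1.26 CPM in sham and 7.23 and 8.99 CPM in TAC libraries (adjusted p = 0.0031), and it shares bases with Afmid. Uhrf1, which keeps DNA methylation through replication, rose from 2.91 and 2.26 to 8.61 and 12.3 CPM, the S-phase activator gene E2f1 from 2.33 and 2.85 to 6.51 and 10.4 CPM and the origin licensing gene Cdc6 from 0.291 and 0.597 to 2.98 and 3.11 CPM. In floxed hearts the median over the mitosis list was 2.43 and over the replication list 1.24. The interaction passed for 1 of the 56 mitosis genes and for 2 of the 41 replication genes, all negative, against 9.18% of all genes. For Mki67 it was -0.01 ± 0.46 (adjusted p = 0.991). A p that misses the threshold does not show that both genotypes responded alike. Of 22 cyclin D, CDK inhibitor and p53 target genes 0 passed in cKO hearts. The mitosis count of 29 was 7 without cKO sham 2, 11 without cKO TAC 2, 16 without cKO sham 1, 17 without either floxed TAC library and 37 without cKO TAC 1. The replication count of 11 was 1 without cKO sham 2, 2 without cKO TAC 2, 3 without cKO sham 1, 3 or 4 without a floxed TAC library and 6 without a floxed sham library.

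Promoters of 3 genes of this group are shown for the motif CCAAT, the site of the trimeric factor NF-Y, in capitals as CCAAT or, on the other strand, ATTGG. Each covers the 250 bases before the RefSeq start (GRCm38.p6): Ccnb2 at chr9:70421555-70421804, Cdk1 at chr10:69352913-69353162 and Top2a at chr11:99024190-99024439, all on the minus strand. The windows of Ccnb2 and Cdk1 held 3 copies each and that of Top2a held 6.
Ccnb2: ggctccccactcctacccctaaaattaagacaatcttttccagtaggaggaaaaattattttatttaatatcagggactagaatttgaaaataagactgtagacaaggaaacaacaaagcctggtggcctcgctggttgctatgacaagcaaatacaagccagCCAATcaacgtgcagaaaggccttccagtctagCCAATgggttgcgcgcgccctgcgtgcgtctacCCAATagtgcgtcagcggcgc
Cdk1: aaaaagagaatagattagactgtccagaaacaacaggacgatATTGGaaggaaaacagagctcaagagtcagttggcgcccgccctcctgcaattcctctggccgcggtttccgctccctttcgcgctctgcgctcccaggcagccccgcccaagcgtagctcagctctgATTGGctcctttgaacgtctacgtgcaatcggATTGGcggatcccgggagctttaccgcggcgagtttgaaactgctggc
Top2a: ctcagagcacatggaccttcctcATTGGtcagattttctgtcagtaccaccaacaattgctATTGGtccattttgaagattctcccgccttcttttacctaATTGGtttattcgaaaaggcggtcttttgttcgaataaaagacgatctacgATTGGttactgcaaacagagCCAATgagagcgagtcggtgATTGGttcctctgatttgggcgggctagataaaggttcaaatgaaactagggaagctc
CCAAT was in 34 of the 44 mitosis genes with a promoter in the table, or 77.3%, and in 19 of the 23 such genes that rose. It was in 40.2% of all tested genes with a promoter and 39.9% of all genes that rose, so it was no more frequent among the genes that rose than among all genes. The CHR motif (TTTGAA, either strand), a site of cell cycle repressor complexes, was in 40.9% of the mitosis list, 22.7% of the genes that rose and 12.6% of all. Outside the mitosis and replication lists it was in 20% of the genes that rose. Ccnb2, a cyclin of mitosis, rose from 0.969 and 0.796 to 3.64 and 8.36 CPM, and Cdk1, its kinase, from 3.49 and 2.12 to 8.94 and 9.91 CPM. Both were picked for display after their values were seen.

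Genes of oxidative metabolism had small negative median differences, and 1 of them passed the threshold. Of 36 genes of fatty acid uptake and oxidation, 0 passed in cKO hearts, where their median was -0.22. In floxed hearts the median was -1.30, and 33 of them fell, against 14.5% of all genes. Acadm, the medium-chain acyl-CoA dehydrogenase, had 1164 and 1257 CPM in cKO sham libraries and 909.5 and 819 CPM in cKO TAC libraries, which do not overlap (difference -0.49 ± 0.11, adjusted p = 0.0623). Its floxed values were 1206 and 1204 CPM in sham and 430.1 and 382 CPM in TAC libraries, and its interaction was 1.08 ± 0.16 (adjusted p = 0.00626). Both TAC libraries lay below both sham libraries in 16 of the 36 genes, 22 of 37 complex I genes, 32 of 42 genes of complexes II to V and 18 of 19 genes of branched-chain amino acid breakdown, against 19.9% of all genes. For complex I the median was -0.25 in cKO and -0.69 in floxed hearts. For complexes II to V the medians were -0.26 and -0.69. The complex I gene Ndufv1 had 830.2 and 876 CPM in sham and 657 and 548 CPM in TAC libraries (adjusted p = 0.0546), and Ndufs1 had 562 and 613 CPM in sham and 524 and 420.2 CPM in TAC libraries. Mut, the methylmalonyl-CoA mutase at the end of branched-chain amino acid breakdown, was the 1 gene of these lists that fell, from 149 and 163 to 109 and 89.1 CPM. It shares bases with Cenpq, and its call (adjusted p = 0.0493) was lost in 12 of the 17 alternatives, among them edgeR, the replicate block and 7 of the 8 fits with 1 library left out. Interactions past the threshold were positive in 4.93% of all genes. They were positive in 27 of the 36 fatty acid genes and 13 of the 37 complex I genes. The same held for 5 of the 42 genes of complexes II to V and 10 of 17 TCA cycle genes. Negative ones numbered 0 in these lists. For complexes II to V the count was 9 under RLE scaling, 11 with edgeR and 21 with DESeq2. Without cKO TAC 1, the library nearer to sham in these lists, 6 of the 36 fatty acid genes fell past the threshold. None of the 12 heart muscle markers passed, and their summed CPM was 98943 and 101242 in sham and 106942 and 93167 in TAC libraries.

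Genes of glucose uptake and glycolysis passed the threshold in cKO hearts about as rarely as all tested genes, of which 2.53% did. Their interaction passed as positive in 11 and as negative in 6, against 4.93% and 9.18% of all genes. Slc16a3, a lactate exporter, rose from 0.776 and 1.39 to 4.63 and 5.88 CPM, the 1 of 32 genes of glucose uptake and glycolysis that passed. Pygl, the liver isoform of glycogen phosphorylase, fell from 40.0 and 39.3 to 6.45 and 14.2 CPM and is described with the genes that differ between genotypes. Nmrk2, the nicotinamide riboside kinase of muscle, rose from 6.11 and 7.37 to 29.7 and 50.9 CPM in cKO hearts and stood at 588 and 252 CPM in floxed TAC libraries, an interaction of -3.16 ± 0.50 (adjusted p = 0.00726). Mt2, a metallothionein that binds zinc and copper, had 14.1 and 9.82 CPM in sham and 106 and 51.7 CPM in TAC libraries, with TAC 1 the higher, and passed under all 17 alternatives. The heme oxygenase gene Hmox1 rose from 16.5 and 15.3 to 27.0 and 36.4 CPM, and its interaction was -2.55 ± 0.23 (adjusted p = 0.00144). Both Gpx3, a secreted glutathione peroxidase (289 and 284 to 467 and 612 CPM), and Sod3, the extracellular superoxide dismutase (56.6 and 48.0 to 78.1 and 94.0 CPM), rose. These 4 were the antioxidant genes of 21 that passed, a count that was 1 without either cKO sham library and 2 without cKO TAC 2.

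Genes of the channels and calcium handling of the adult muscle cell are set against all tested genes, of which 2.09% rose and 0.442% fell. Of 18 genes listed as potassium channels of heart muscle, 2 fell, a larger share than among all genes, and 0 rose. Abcc9, the regulatory subunit of the ATP-sensitive potassium channel, had 620.3 and 673 CPM in sham and 361 and 412 CPM in TAC libraries (difference -0.74 ± 0.12, adjusted p = 0.012). Kcnj8, a pore subunit of that channel, had 70.5 and 89.3 CPM in sham and 40.5 and 47.7 CPM in TAC libraries. Neither passed without cKO sham 2. Both are also markers of pericytes. Of the 12 mural cell markers 2 rose and 2 fell. Kcnj8 is among those that fell, so this count is not separate from that of the channels. The summed CPM of the mural markers was 4251 and 4325 in sham and 5266 and 6036 in TAC libraries. In floxed hearts 14 of the 18 channels fell, and the interaction was positive past the threshold for 11. Those shares were 14.5% and 4.93% among all genes. Of 17 calcium handling genes 0 passed in cKO hearts. Atp2a2, the calcium pump of the sarcoplasmic reticulum, had 16609.6 and 17689 CPM in sham and 14973 and 12617 CPM in TAC libraries (difference -0.32 ± 0.18, adjusted p = 0.422), and its interaction was 1.40 ± 0.25 (adjusted p = 0.0111). Its inhibitor Pln had 7202 and 7872 CPM in sham and 6076 and 5239.8 CPM in TAC libraries. Ace, which makes angiotensin II, rose from 106 and 68.4 to 215 and 204 CPM, while the angiotensin receptor gene Agtr1a fell from 72.7 and 73.1 to 39.4 and 49.2 CPM. These were the 2 of 18 adrenergic, angiotensin and endothelin genes that passed, and neither passed without cKO sham 2. Jun and Zfp36 were the 2 of 23 immediate early genes that rose, and neither of them passed without cKO sham 1 or without cKO sham 2.

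**Figure D3:**
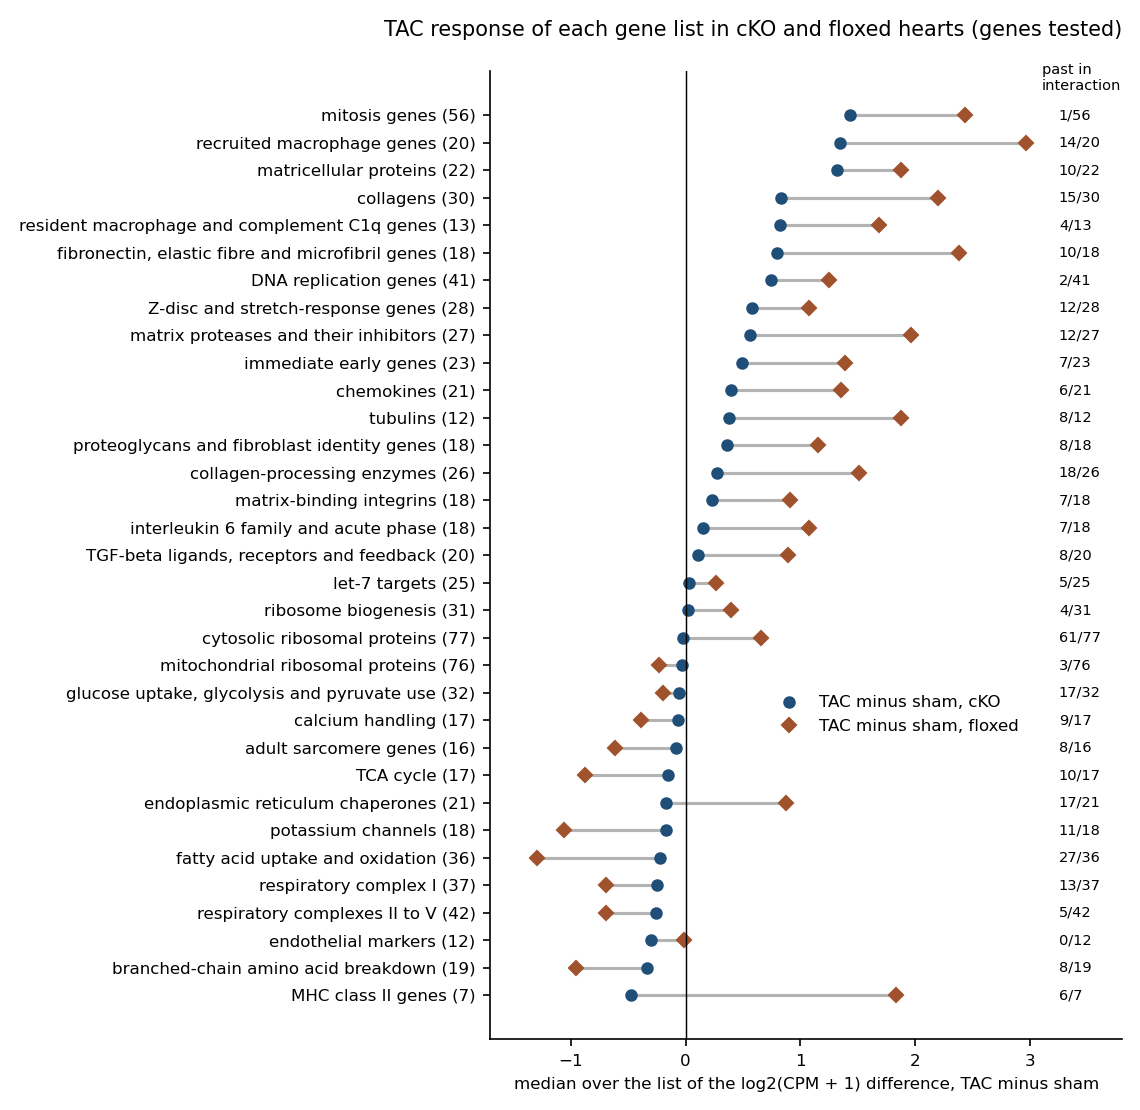
For each gene list (number of tested genes) the x axis gives the median log2(CPM + 1) difference, TAC minus sham, in cKO hearts (blue circle) and floxed hearts (brown diamond), and the numbers at the right count genes past the threshold in the interaction. The cKO median lay nearer to 0 than the floxed median in the matrix, macrophage, metabolic and channel lists shown, and below 0 where the floxed median was above it for the endoplasmic reticulum chaperones and MHC class II genes.

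Few genes of protein synthesis passed the threshold in cKO hearts, where 2.53% of all tested genes passed. Over 77 cytosolic ribosomal protein genes the median was -0.02, with 0 higher and 1 lower, and in floxed hearts it was 0.66 with 73 higher. The interaction was negative and passed for 60 of the 77, and for 36 of the 77 under RLE scaling or with edgeR. Among all genes 9.18% had a negative interaction past the threshold, and 27.9% rose in floxed hearts. The 1 ribosomal protein gene that fell was Rpl3l, the muscle isoform of Rpl3, from 247 and 266 to 172 and 155 CPM (adjusted p = 0.0175), with an interaction of 2.08 ± 0.15 (adjusted p = 0.000375). It did not pass when cKO sham 1, cKO sham 2 or cKO TAC 2 was left out. Of 31 ribosome biogenesis genes, 37 aminoacyl-tRNA synthetases, 76 mitochondrial ribosomal proteins and 41 proteasome subunits, 0 passed in cKO hearts. Endoplasmic reticulum chaperones, which fold secreted proteins such as collagen, had a median of -0.17 in cKO and 0.87 in floxed hearts, and 17 of 21 had a negative interaction past the threshold (13 under RLE scaling). Canx, or calnexin, fell from 430.4 and 404 to 293 and 305 CPM (difference -0.48 ± 0.10, adjusted p = 0.0369), a call that was lost with each of the 8 libraries left out in turn. The stress-response factor gene Atf4 rose from 42.6 and 47.6 to 83.0 and 67.5 CPM, a call lost in 10 of the 17 alternatives, RLE scaling and edgeR included, and the co-chaperone gene Dnajb1 from 16.2 and 18.0 to 37.5 and 33.5 CPM.

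Targets of let-7 were examined because LIN28A acts on that microRNA. The mature mouse let-7a, with its seed (bases 2 to 8) in capitals, reads as follows in RefSeq (GRCm38.p6, chr13:48538239-48538260, minus strand, for the copy Mirlet7a-1).
mmu-let-7a-5p: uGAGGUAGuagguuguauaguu
MicroRNAs themselves were not measured in these libraries. Of 25 messenger RNAs listed as let-7 targets, 0 passed in cKO hearts, and their median was 0.03, next to 0.02 over all tested genes. In floxed hearts their median was 0.26, next to 0.14 over all tested genes. Their interaction passed as negative in 4 and as positive in 1, against 9.18% and 4.93% of all genes. Hmga2, a chromatin protein of growing tissues, had 3.59 and 4.71 CPM in sham and 5.90 and 4.61 CPM in TAC libraries, which overlap. Igf2bp2, which binds growth factor messages, had 4.17 and 2.92 CPM in cKO sham libraries, 5.46 and 5.19 CPM in cKO TAC and 14.8 and 17.8 CPM in floxed TAC libraries. Its cKO difference of 0.49 ± 0.25 did not pass (adjusted p = 0.373), and its interaction of -1.59 ± 0.35 did (adjusted p = 0.0202). The mitochondrial enzyme gene Pck2 had 11.3 and 15.3 CPM in sham and 13.3 and 16.8 CPM in TAC libraries of cKO hearts (adjusted p = 0.722). Among the 12 insulin-like growth factor ligands and binding proteins, Igf1 rose from 21.7 and 17.6 to 34.3 and 54.0 CPM and Igfbp2 from no read in either sham library (a limit of 0.291 and 0.199 CPM) to 2.21 and 1.84 CPM, while Igfbp3 fell from 45.6 and 59.9 to 29.3 and 19.4 CPM. None of these 3 passed without cKO sham 2.

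The 58 genes that fell are mostly outside the lists, with 47 of them in no list. Aqp1, the water channel of capillary endothelium, had 752 and 758 CPM in sham and 421 and 318 CPM in TAC libraries, a ratio of 0.489 (difference -1.04 ± 0.14, adjusted p = 0.007). Its floxed TAC values were 275 and 262 CPM, and the interaction of 0.18 ± 0.20 did not pass (adjusted p = 0.583). The aquaglyceroporin gene Aqp7 went from 41.2 and 34.6 to 12.7 and 22.8 CPM, and Angpt1, a ligand that stabilises vessels, from 40.2 and 46.1 to 20.4 and 27.9 CPM. None of the 12 endothelial markers passed, and their summed CPM was 1958 and 2155 in sham and 1471 and 2098 in TAC libraries, so that TAC 1 was the lowest. The part of endothelial content in the fall of Aqp1 was not tested. Pink1, a kinase that marks damaged mitochondria, fell from 816 and 964 to 598 and 607 CPM, and the lipoprotein receptor gene Vldlr from 435 and 432 to 322 and 294 CPM. Ift81, of the transport machinery of cilia, had 80.3 and 89.9 CPM in sham and 29.6 and 30.1 CPM in TAC libraries, a difference of -1.48 ± 0.19. Abca4, a lipid transporter, fell from 29.1 and 21.8 to 9.65 and 5.07 CPM, and Kcna1, a potassium channel of nerve that was listed with the Schwann cell markers and not with the heart muscle channels, from 5.62 and 5.51 to 1.65 and 1.38 CPM. The ephrin gene Efnb3 fell from 189.6 and 219 to 98.2 and 99.3 CPM. Selenbp1 and Selenbp2, near-identical selenium-binding proteins whose reads may be shared, both fell. Of the 58, 48 also fell in floxed hearts, 2.52% of the 1907 that did. None of the 58 passed under all 17 alternatives (Pink1 and Vldlr lost the call in 10 and 12), and 4 genes fell past the threshold without cKO sham 2.

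**Figure D4:**
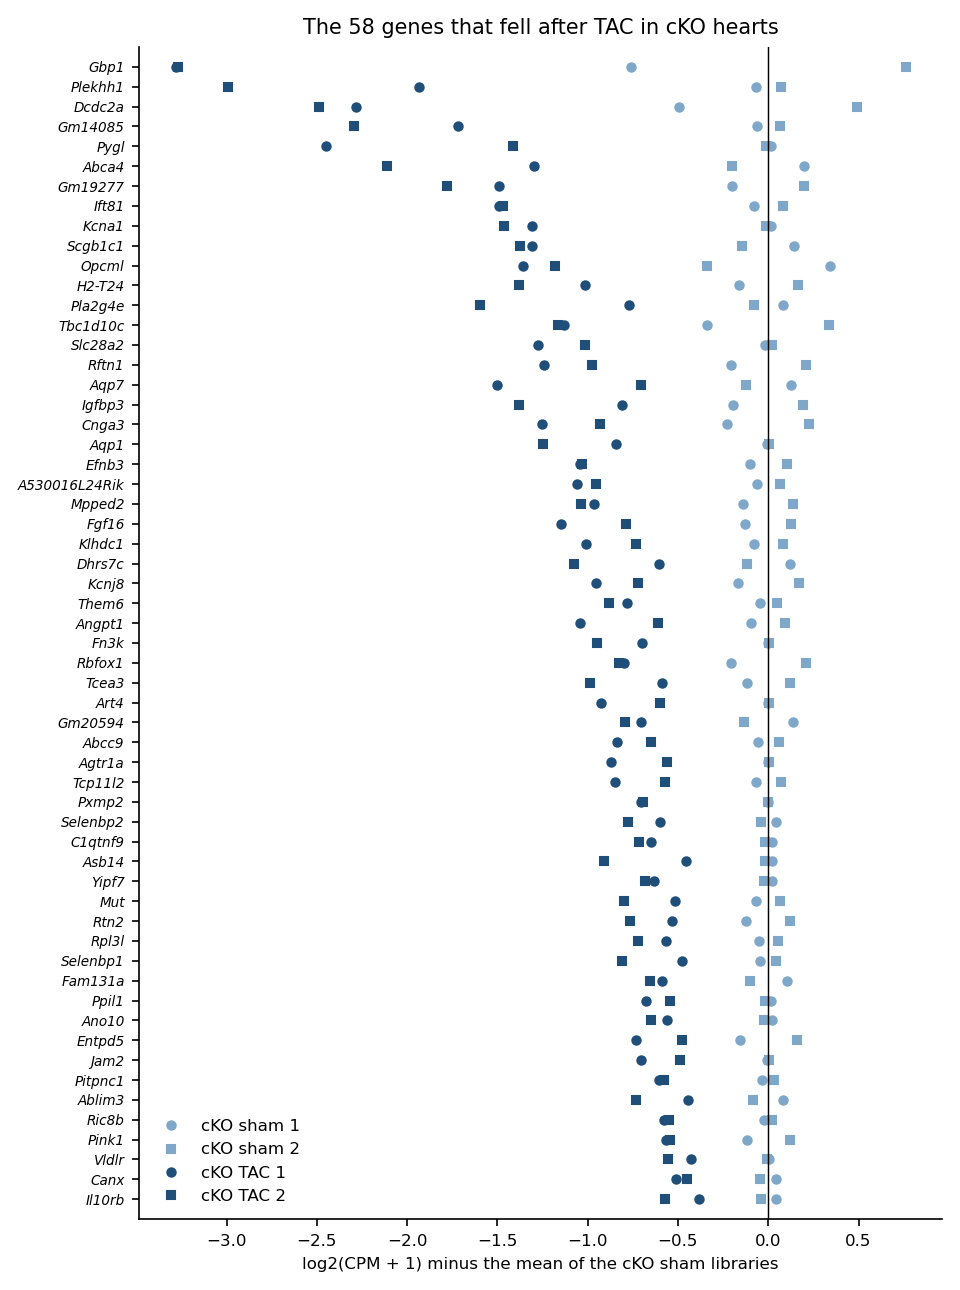
Every row is 1 of the 58 genes that fell, ordered by the size of the fall. The x axis gives the log2(CPM + 1) value of each of the 4 cKO libraries minus the mean of the 2 sham libraries (light points, sham; dark points, TAC; circle, library 1; square, library 2), and the dark points lie left of the light ones in every row.

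For 95 of the 274 genes that rose the interaction was negative and past the threshold, 34.7% against 9.18% of all genes, and for 175 it did not pass. The positive interactions past the threshold among genes that rose were 4. Of the genes that rose, 264 also rose in floxed hearts, which is 96.4% of the 274 and 7.22% of the 3655 that rose there. Of the 58 that fell, 23 had a positive interaction past the threshold, 9 a negative one and 26 none. Choosing genes by their cKO response favours those with a large cKO value, so these counts are descriptions.

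Genes that passed in cKO and not in floxed hearts numbered 14, and the interaction passed for 7 of them. Myl1, a fast skeletal and embryonic heart light chain, had 54.9 and 57.7 CPM in cKO sham libraries and 298 and 234 CPM in cKO TAC libraries, against 86.5 and 94.8 CPM in floxed sham and 85.0 and 122 CPM in floxed TAC libraries. Its cKO difference was 2.21 ± 0.17 (adjusted p = 0.000824) and its interaction 2.04 ± 0.25 (adjusted p = 0.00437). All 4 floxed libraries lay between the cKO sham and the cKO TAC values. Of 8 skeletal muscle markers 0 passed in cKO hearts, and their summed CPM was 2942 and 2955 in sham and 3243 and 2527 in TAC libraries. Ccrl1, an atypical receptor that takes up chemokines, had 6.88 and 6.90 CPM in cKO sham libraries and 33.7 and 18.6 CPM in cKO TAC libraries, with 14.1 and 14.4 CPM in floxed sham and 13.9 and 18.2 CPM in floxed TAC libraries (interaction 1.58 ± 0.36, adjusted p = 0.022). Rftn1, a raft protein, fell from 98.0 and 131 to 47.3 and 57.1 CPM in cKO hearts and had 48.7 and 57.0 CPM in sham and 68.5 and 71.2 CPM in TAC libraries of floxed hearts (interaction -1.51 ± 0.23, adjusted p = 0.00626). Slc28a2, a nucleoside transporter, fell from 41.9 and 43.0 to 16.9 and 20.5 CPM in cKO hearts, with 28.0 and 34.1 CPM in sham and 21.9 and 24.7 CPM in TAC libraries of floxed hearts. Canx, Gm14085 and 2210407C18Rik were the others whose interaction passed. Of these 7 genes, Myl1 kept its cKO call under all 17 alternatives and the other 6 lost it without cKO sham 2. For Raph1, Phyhip, Midn, 5430417L22Rik, Cuzd1, Tbx15 and H2-T24 it did not, so no difference between genotypes is shown. Cuzd1 overlaps Fgfr2 in the annotation, and H2-T24 overlaps A930015D03Rik.

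Opposite changes past the threshold in both genotypes were found for 6 genes. Gbp1, an interferon-induced GTPase, had 6.01 and 19.1 CPM in cKO sham libraries and 0.221 and 0.23 CPM in cKO TAC libraries, while floxed hearts had 0.26 and 0.06 CPM in sham and 10.9 and 13.2 CPM in TAC libraries. The interaction was -6.77 ± 0.58 (adjusted p = 0.00123), and the Gbp family has close paralogs, so its reads may be shared. Dcdc2a, a doublecortin protein of cilia, showed the same layout, with 4.36 and 9.62 CPM in sham and 0.552 and 0.346 CPM in TAC libraries of cKO hearts and 0.324 and 0.18 CPM in sham and 24.7 and 26.2 CPM in TAC libraries of floxed hearts. Both were high in cKO sham and floxed TAC libraries and low in the rest. Searching all 13120 genes for that layout at more than 3-fold, a count made after these values were seen, found these 2 genes, and the opposite layout found 0. Pygl had 40.0 and 39.3 CPM in cKO sham libraries and 6.45 and 14.2 CPM in cKO TAC libraries, and 4.09 and 5.58 CPM in sham and 28.6 and 27.3 CPM in TAC libraries of floxed hearts. Igfbp3, which binds insulin-like growth factors, had 45.6 and 59.9 CPM in sham and 29.3 and 19.4 CPM in TAC libraries of cKO hearts and 25.8 and 34.4 CPM in sham and 57.1 and 66.3 CPM in TAC libraries of floxed hearts. Cnga3, a cyclic nucleotide-gated channel, fell from 8.34 and 11.8 to 3.59 and 4.73 CPM in cKO hearts and rose from 6.10 and 7.26 to 18.2 and 18.3 CPM in floxed hearts. Manba, a lysosomal mannosidase, was the 1 gene that rose in cKO hearts, from 13.9 and 10.5 to 20.7 and 31.6 CPM, and fell in floxed hearts, from 23.4 and 25.9 to 15.4 and 16.3 CPM. In all 6 genes the sham libraries of both genotypes did not overlap either. The share of all genes with such sham libraries is not given here, and the 6 were picked by responses that use the same sham values. It is therefore a description only. The cKO call was lost in 1 of the 17 alternatives for Gbp1, 2 for Dcdc2a, 3 for Pygl, 8 for Cnga3 and 9 each for Igfbp3 and Manba, and without cKO sham 2 for the last 4 of these.

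**Figure D5:**
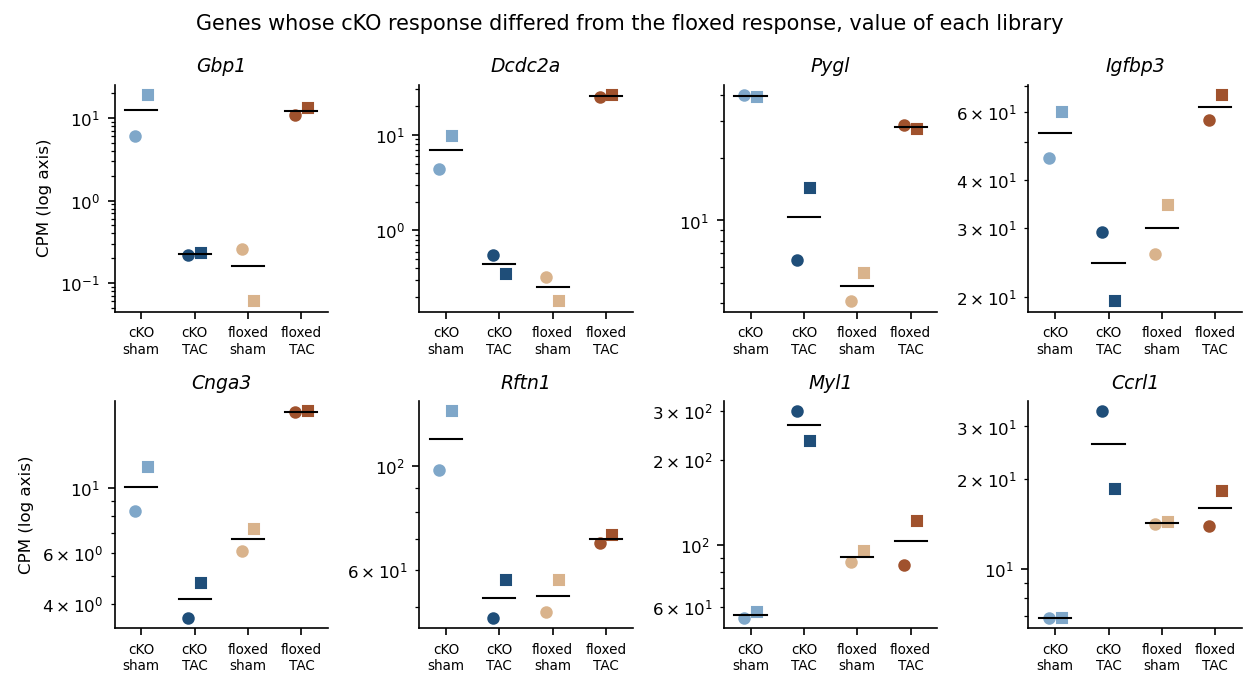
Each panel plots 1 gene with CPM on a log axis for the 2 libraries of each group (circle, library 1; square, library 2; black line, group mean). Gbp1, Dcdc2a, Pygl, Igfbp3, Cnga3 and Rftn1 were lower in both cKO TAC than in both cKO sham libraries, whereas Myl1 and Ccrl1 were higher, and in floxed hearts the first 6 of these were higher in both TAC than in both sham libraries.

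The 2 cKO TAC libraries differed in how far they moved. Of the 274 genes that rose, TAC 2 lay farther from sham than TAC 1 in 214 (78.1%), against 54.3% of all genes. The median distance over those 274 genes was 1.16 in TAC 1 and 1.53 in TAC 2 on the log2 scale. Tnc, Spp1, Lox and Timp1 were more than 2-fold higher in TAC 2 than in TAC 1. The order was the other way for Nppa, Acta1, Fhl1, Mt2 and Myl1, as their values above show. With 1 library each, such differences have no replicate check. Of the 58 genes that fell, TAC 2 was the farther in 32.

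Across the 17 alternatives 19 of the 332 genes passed every time, all of them higher after TAC. They were Nppa, Fhl1, Actg2 and Myl1 of the muscle genes, Postn, Thbs4, Fstl1, Col12a1, Col8a1, Ltbp2, Mfap5, Cilp and Timp1 of the matrix, Top2a, Bub1b, Prc1 and Kif22 of cell division, Ccl8 and Mt2. None of the 332 changed direction under any alternative. Fits that left out libraries could not have shown a change of direction, because both TAC libraries lay beyond both sham libraries in each of these genes. Of the 332, the fit without cKO sham 2 kept 59, the fit without cKO TAC 1 kept 264 and the fit of the 4 cKO libraries alone kept 42.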

How the data were processed

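Messenger RNA of left ventricles was sequenced from stranded libraries, and the deposited table gives CPM values (counts scaled to the total of each library) that the authors made. Per the submitters' processing notes, Bowtie2 2.2.6, HTSeq, DESeq2 and the build mm10 were used, with the annotation and counting settings not given in the sources used here. Reads were recovered from the CPM steps, which gave whole numbers for 100% of values (tolerance 0.02 reads), and each library's total is thus known. A gene entered the tests if 2 or more libraries reached 1 CPM, and 319 genes did not. log2(CPM + 1) values were fitted with limma 3.58.1 (R 4.3.3) on all 8 libraries with 1 coefficient per group and a trended variance. Contrasts were TAC minus sham in cKO hearts, the same in floxed hearts, and their difference (interaction), with Benjamini-Hochberg adjustment over all tested genes and a threshold of 0.05.

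Alternatives were log2(CPM + 0.25), no filter, at least 5 CPM, RLE scaling, edgeR 4.0.16 and DESeq2 1.42.0 on the recovered reads (edgeR called 346 genes in cKO hearts), the 4 cKO libraries alone, each library left out, the replicate number as a block, and leaving out the 3 libraries with atrial transcripts. The code was tested on simulated data, in which the cKO comparison recovered 11.9% of 1.5-fold, 55.2% of 2-fold and 95.5% of 4-fold changes. A gene that did not pass can therefore still have changed. The members, gene lists and settings were chosen with earlier results of these data known. Named genes were, in cKO hearts, the 20 largest increases, all decreases, up to 4 called members of each list (or the 2 with the smallest p where none passed), 20 genes of general interest, those not past the threshold or opposite in floxed hearts, and the 20 with the smallest interaction p. Not every gene under these rules is described in the text, for example Sprr1a (log2 difference 4.51) and Plekhh1 (-2.46) are not. Other names were chosen after their values were seen. Promoters and the microRNA come from RefSeq tables (GRCm38.p6), matched by symbol. Lin28a is not analysed here.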

Additional observations from a re-analysis of the deposited data

Results flagged for a closer look

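For 13 genes that passed the threshold in cKO hearts the interaction (cKO response minus floxed response on the log2(CPM + 1) scale, limma) also passed, and the floxed response was either opposite or not past the threshold. The change was downward in cKO and upward in floxed hearts for Dcdc2a (interaction -6.79 ± 0.43, adjusted p = 0.000255), Gbp1 (-6.77 ± 0.58, adjusted p = 0.00123), Pygl (-4.26 ± 0.41, adjusted p = 0.00191), Cnga3 (-2.42 ± 0.31, adjusted p = 0.00454) and Igfbp3 (-2.12 ± 0.31, adjusted p = 0.00583). Manba rose in cKO hearts and fell in floxed hearts (1.63 ± 0.30, adjusted p = 0.0116).

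Genes that rose in cKO hearts and did not pass in floxed hearts were Myl1 (2.04 ± 0.25, adjusted p = 0.00437), 2210407C18Rik (1.83 ± 0.40, adjusted p = 0.0182) and Ccrl1 (1.58 ± 0.36, adjusted p = 0.022). Genes that fell in cKO hearts and did not pass in floxed hearts were Gm14085 (-1.86 ± 0.38, adjusted p = 0.0157), Rftn1 (-1.51 ± 0.23, adjusted p = 0.00626), Slc28a2 (-0.75 ± 0.22, adjusted p = 0.0495) and Canx (-0.50 ± 0.14, adjusted p = 0.0396). Gm14085 had 19.4 and 21.2 CPM in the cKO sham libraries, 5.46 and 3.34 CPM in cKO TAC, 8.95 and 14.3 CPM in floxed sham and 8.78 and 11.7 CPM in floxed TAC libraries. 2210407C18Rik had 0.194 and 0.199 CPM in sham and 2.04 and 1.73 CPM in TAC libraries of cKO hearts, and 7.98 and 6.96 CPM in sham and 6.54 and 3.34 CPM in TAC libraries of floxed hearts, and its cKO sham values are at most 3 reads. The cKO call of Canx was lost with each of the 8 libraries left out in turn, that of 2210407C18Rik, Igfbp3 and Manba in 9 of the 17 alternatives and that of Cnga3 in 8. Of the other named genes past the threshold in cKO hearts, 67 passed the interaction, and in all 67 the cKO change had the sign of the floxed change and lay closer to 0.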

How the results depend on the processing

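With 2 libraries in a group, counts of genes past the threshold depended on which libraries entered the fit. None of the 332 genes called in cKO hearts changed direction under any of the 17 alternatives. That is no measure of stability for fits that left out libraries. Both TAC libraries lay beyond both sham libraries in each of the 332, so such fits could not reverse a direction. In TAC against sham in cKO hearts, DESeq2 on recovered reads gave 688 genes (527 higher, 161 lower), the 4 cKO libraries alone gave 45 (41 higher, 4 lower), and leaving out the 3 libraries with atrial transcripts gave 53 (43 higher, 10 lower). Leaving out 1 library gave 71 to 615 genes (67 to 512 higher, 4 to 103 lower), lowest without cKO sham 2 and highest without cKO TAC 1. The other scalings, filters and edgeR gave 266 to 348. For the genotype by surgery interaction (647 positive, 1204 negative), RLE scaling gave 843 and 916, edgeR 820 and 781, and DESeq2 1003 and 930. Leaving out 1 library gave 254 to 2919 genes (113 to 853 positive, 141 to 2066 negative). In TAC against sham in floxed hearts it gave 3618 to 5919. Fewer libraries also leave fewer degrees of freedom, and a lone library is then assumed to vary like the other groups. Otherwise the cause was not tested.

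Deviations of same-numbered libraries from their group means correlated at -0.105 to 0.0812 across genes, and at 0.0398 between cKO sham and cKO TAC. No pairing by replicate number was seen over all genes, but such correlations cannot exclude it for some genes. Myl7 was higher in library 2 than in library 1 in every group but floxed TAC. With the replicate number as a block, 309 genes passed in cKO hearts (259 higher, 50 lower), 276 of them among the 332, and 1873 passed in the interaction. In the block, 2 matrix proteases and inhibitors rose in place of 4. Precision is limited by the number of libraries, and below 1 CPM also by the reads per library.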
